A study of Mus musculus with 12 samples.

Results

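The Cd300 receptor genes and the related immunoglobulin-like receptor gene Lilra6 were measured in gonadal white adipose tissue of mice of 4 genotypes. The 8 genes were Cd300a, Cd300c2, Cd300e, Cd300lb, Cd300ld, Cd300lf, Cd300lg and Lilra6. They were read by 12 of 55587 probes and made up 8 of the 31453 genes or unnamed probes tested. They were chosen by the signal of Cd300c2 and Lilra6, which was lower in the double knockout than in the wild type, so all values of that comparison are a description and carry no test. All 12 probes were well above background on all 12 arrays, so no member entered through the group in which it was high.

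The mice were males of strain C57BL/6N aged 59 to 67 days. Mice lacking Gadd45a, a stress-induced gene, and mice lacking Ing1, a gene for a chromatin-binding protein, had been crossed with each other. The groups were wild type (WT), Gadd45a-/- (Gadd45a-KO), Ing1-/- (Ing1-KO) and Gadd45a-/-;Ing1-/- (DKO), with no further treatment named. Fat from 9 mice per genotype gave 3 arrays, each hybridised with the pooled RNA of 3 mice. The spread between arrays of a group is thus a spread between pools, which also lay on different slides.

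Each array was a one-colour Agilent array, and each value below is the log2 of the deposited signal intensity after aligning the arrays on their 75th percentile. That percentile lay between 456 and 894 intensity units, and 58.2% to 68.1% of spots were well above background. As a check of the labels, mean Ing1 signal was 9.40 ± 0.13 in Ing1-KO and 9.32 ± 0.25 in DKO, where WT had 12.46 ± 0.03 and Gadd45a-KO had 12.55 ± 0.21 (SD, n = 3). The Gadd45a probe was not lower in the arrays labelled as lacking Gadd45a, with 9.51 ± 0.25 in WT, 9.20 ± 0.12 in Ing1-KO, 10.17 ± 0.11 in Gadd45a-KO and 10.61 ± 0.01 in DKO (SD, n = 3), so it does not check those labels. All 10 adipocyte markers looked for were measured, whereas 7 of 8 markers of the neighbouring epididymis were not measured above the filter on dim probes. Skeletal muscle transcripts stood high on replicate 1 of Ing1-KO, DKO and Gadd45a-KO. Replicate number was also slide and scan number, per the file headers.

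Cd300 and Lilr/Pir genes code for surface receptors of myeloid cells such as macrophages, monocytes, neutrophils and mast cells, and they come in pairs of opposite sign. Inhibitory members carry tyrosine motifs that recruit the phosphatases Ptpn6 and Ptpn11. Activating members have short tails and signal through the adaptors Tyrobp or Fcer1g to the kinase Syk. Ligands of several Cd300 receptors are membrane lipids shown by dying cells, and Pir receptors bind MHC class I molecules. Fat tissue holds resident macrophages and, in smaller numbers, other cells that carry such receptors.

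Among the genes of the activating kind, Cd300c2, Cd300ld and Lilra6 had lower signal wherever Ing1 was lacking. The difference between Ing1-KO and Gadd45a-KO is taken over none of the arrays by which the genes were chosen, although its groups differ by both genes. Its error pools the spread of all 12 arrays, WT and DKO included. In it, limma called Lilra6, Cd300ld and Cd300c2 lower, 2.44-fold, 1.93-fold and 2.07-fold. No member was called higher. In all genes tested, 0.191% were called lower in that comparison (60 of 31453), and 0.248% in either direction. Of the 8 members 6 had a negative difference, as had 55.2% of all genes, and 5 had Ing1-KO wholly below Gadd45a-KO, as had 18.3% of all genes.

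Cd300c2 codes for an activating receptor of the family. Its log2 signal (probe A_55_P1978216) was 10.61, 9.89 and 10.20 in WT replicates 1 to 3, and 10.68, 10.78 and 10.72 in Gadd45a-KO. It was 9.60, 9.77 and 9.67 in Ing1-KO and 9.04, 8.98 and 9.34 in DKO. The 3 Gadd45a-KO arrays were the highest, Ing1-KO lay below every WT array, DKO lay below every Ing1-KO array, and no groups overlapped. Ing1-KO was below Gadd45a-KO by -1.05 ± 0.17 on the log2 scale (SE, n = 3; 95% interval -1.41 to -0.69), with a limma adjusted p of 0.0296. Within slides 1, 2 and 3 that difference was -1.08, -1.01 and -1.05. The described difference between DKO and WT was -1.12 ± 0.17 (SE, n = 3).

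Cd300ld codes for another activating receptor, and its gene lies next to Cd300c2. Its log2 signal (A_55_P1983523) was 10.76, 10.48 and 10.25 in WT and 10.85, 10.91 and 10.84 in Gadd45a-KO. It was 10.07, 9.73 and 9.95 in Ing1-KO and 9.82, 10.07 and 9.92 in DKO. The 2 groups without Ing1 overlapped, with every array below every WT and Gadd45a-KO array. Ing1-KO was below Gadd45a-KO by -0.95 ± 0.14 (SE, n = 3; 95% interval -1.25 to -0.64), with a limma adjusted p of 0.0244. DKO was below Gadd45a-KO by -0.93 ± 0.14 (SE, n = 3), with a limma adjusted p of 0.00834. Between DKO and Ing1-KO the difference was 0.02 ± 0.14 (SE, n = 3; 95% interval -0.28 to 0.32; adjusted p 0.995).

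Lilra6 codes for an activating member of the Pir group, whose genes lie in a cluster of near-identical copies on chromosome 7. Which copies its probes bind cannot be told from the signals, so its values are uncertain as to the gene. On the brightest probe (A_55_P2079561) the log2 signal was 11.27, 10.78 and 10.92 in WT and 11.47, 11.19 and 11.32 in Gadd45a-KO. It was 9.92, 9.97 and 10.24 in Ing1-KO and 10.16, 9.54 and 10.05 in DKO. The 6 arrays without Ing1 were all below the 6 arrays with it, by a gap from 10.24 to 10.78. Ing1-KO was below Gadd45a-KO by -1.29 ± 0.18 (SE, n = 3; 95% interval -1.68 to -0.90), with a limma adjusted p of 0.0232. Within slides 1 to 3 the difference was -1.55, -1.22 and -1.09.

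Both other Lilra6 probes showed the same order of groups. On probe A_55_P2079560 the log2 signal was 9.77, 9.70 and 9.82 in WT, 9.89, 10.11 and 10.20 in Gadd45a-KO, 8.21, 8.87 and 9.08 in Ing1-KO and 8.58, 8.38 and 9.02 in DKO. On probe A_55_P2043171 it was 7.05, 6.40 and 6.76 in WT, 7.39, 7.27 and 6.71 in Gadd45a-KO, 6.00, 6.11 and 6.23 in Ing1-KO and 5.89, 5.73 and 6.13 in DKO. On each of them every array without Ing1 lay below every array with it. With every probe tested, Ing1-KO was below Gadd45a-KO by -1.35 ± 0.22 (SE, n = 3; limma adjusted p 0.0304) on the first and by -1.01 ± 0.22 (SE, n = 3; adjusted p 0.0830) on the second. Across the 12 arrays the 3 probes correlated pairwise with Pearson's r of 0.88 to 0.94, a description over arrays that share their RNA.

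**Figure D1:**
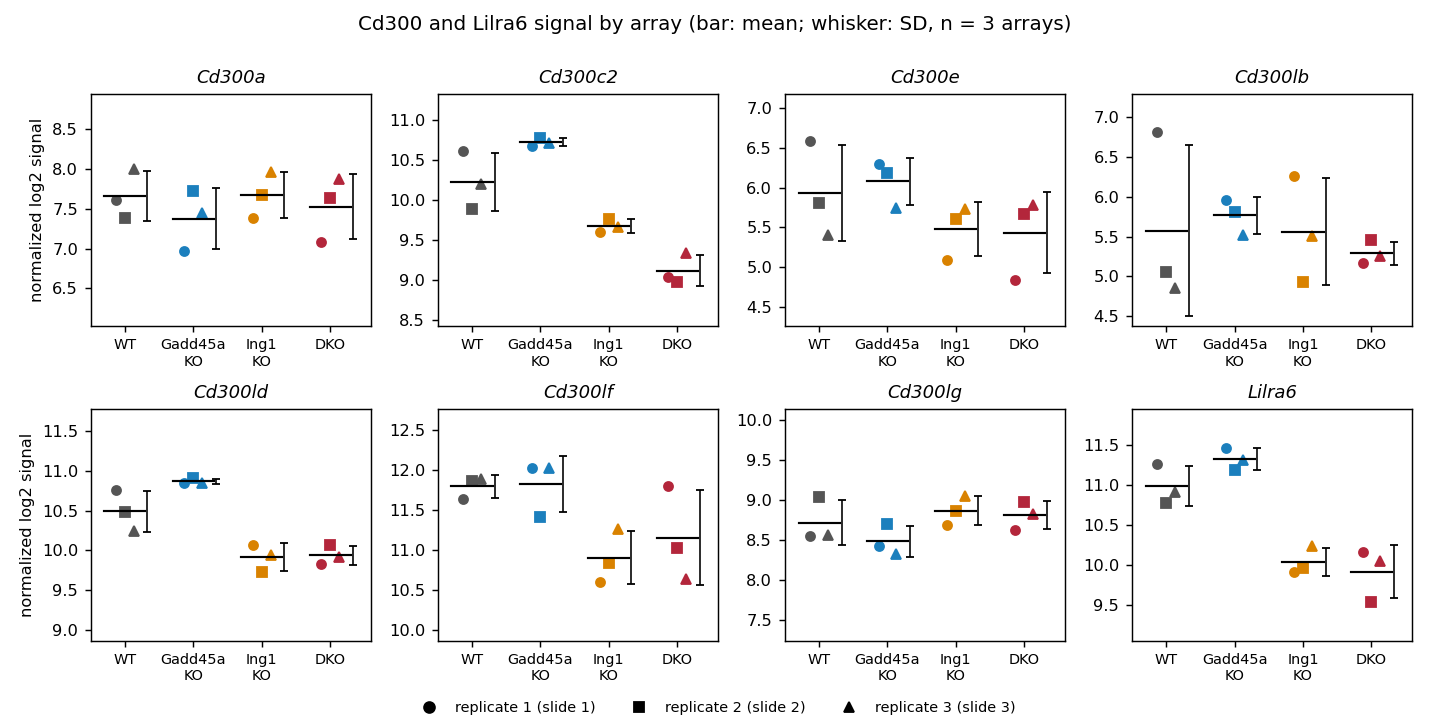
Normalized log2 signal (vertical axis, own range and equal span in each panel) of the 8 genes on the 12 arrays by genotype (horizontal axis), brightest probe of each gene. Points are arrays, marker shape is the replicate and slide, the line is the mean and the whisker the SD of 3 arrays. Cd300c2, Cd300ld and Lilra6 have all 6 arrays without Ing1 below the 6 with it, whereas the groups of Cd300a and Cd300lg run into each other.

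The separation of the 6 arrays without Ing1 from the 6 with it held for 3 of 8 members, Cd300c2, Cd300ld and Lilra6. Over all genes tested, 4.91% (1543 of 31453) had all 6 arrays without Ing1 below the 6 with it. That count includes the WT and DKO arrays by which Cd300c2 and Lilra6 were chosen, so it is a description. A further fit held the 6 arrays of Ing1-KO and Gadd45a-KO alone, which leaves out WT and DKO. In it, limma adjusted p was 0.0127 for Cd300c2, 0.0210 for Cd300ld and 0.0138 for Lilra6. That fit called more genes in either direction, 444 of all 31453, against 78 in the fit of all arrays. In whole tissue, fewer cells of a type and less RNA per cell cannot be told apart.

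The 6 Cd300 genes other than Cd300lg lie together on chromosome 11, in a run of 12 coding genes from Cd300a to Cd300lf, 11 of them Cd300 genes and the other one Rab37. Cd300ld and Cd300c2 are direct neighbours, and Cd300lg stands apart with 146 coding genes between it and Cd300a. The stretches of 250 bases before the start sites of the 3 genes called lower are shown with that of Cd300a, from the same cluster, which did not pass the test. Sequences are from RefSeq, build GRCm38.p6, each written 5′ to 3′ on its gene's strand. Capitals mark GAGGAA, a core of the sites of the myeloid factor PU.1, or its reverse complement TTCCTC.
Cd300c2 (chr11:115001881-115002130, - strand): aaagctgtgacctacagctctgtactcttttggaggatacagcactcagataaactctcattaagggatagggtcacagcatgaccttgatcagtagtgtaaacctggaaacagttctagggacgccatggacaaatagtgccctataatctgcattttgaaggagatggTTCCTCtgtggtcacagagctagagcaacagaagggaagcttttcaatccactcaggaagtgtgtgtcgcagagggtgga
Cd300ld (chr11:114989887-114990136, - strand): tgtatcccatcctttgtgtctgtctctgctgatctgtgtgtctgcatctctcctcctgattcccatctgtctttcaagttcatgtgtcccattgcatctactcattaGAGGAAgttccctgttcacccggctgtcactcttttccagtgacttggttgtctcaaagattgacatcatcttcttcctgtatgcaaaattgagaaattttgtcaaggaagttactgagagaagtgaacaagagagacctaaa
Lilra6 (chr7:3915502-3915751, - strand): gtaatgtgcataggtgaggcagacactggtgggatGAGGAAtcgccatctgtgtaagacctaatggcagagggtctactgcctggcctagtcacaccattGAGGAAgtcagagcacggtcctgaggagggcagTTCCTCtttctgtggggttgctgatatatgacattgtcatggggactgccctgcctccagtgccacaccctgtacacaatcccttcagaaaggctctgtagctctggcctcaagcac
Cd300a (chr11:114889791-114890040, + strand): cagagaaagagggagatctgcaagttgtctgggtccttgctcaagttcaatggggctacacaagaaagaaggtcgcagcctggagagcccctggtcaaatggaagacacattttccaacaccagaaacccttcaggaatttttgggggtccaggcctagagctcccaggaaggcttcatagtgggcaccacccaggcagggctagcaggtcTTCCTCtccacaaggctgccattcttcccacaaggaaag
In these windows, the motif begins 80 bases before the start of Cd300c2 on the opposite strand and 143 before that of Cd300ld on the gene's strand. Lilra6 has it at 215 and 150 bases on the gene's strand and at 117 on the opposite strand, and Cd300a has it at 39 bases on the opposite strand. In windows of 300 bases, reaching 50 bases past the start, it was present on either strand in 5 of 7 members with a promoter entry (71.4%), the fifth being Cd300lf, and in 28.3% of the 27025 promoters of the table. On the gene's strand alone it was in 3 of 7 (42.9%) and in 15.6% of all. These matches describe letters in the windows and do not show binding.

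Cd300lf codes for an inhibitory receptor of the family, and its 3 probes did not give the same picture. On the brightest probe (A_55_P2004511) the log2 signal was 11.63, 11.86 and 11.89 in WT, 12.02, 11.41 and 12.02 in Gadd45a-KO, 10.60, 10.84 and 11.26 in Ing1-KO and 11.80, 11.02 and 10.63 in DKO. All Ing1-KO arrays lay below all WT and Gadd45a-KO arrays, whereas the DKO arrays spread from the Ing1-KO level to the WT level. Ing1-KO was below Gadd45a-KO by -0.92 ± 0.27 (SE, n = 3; 95% interval -1.51 to -0.33), which did not pass the test (limma adjusted p 0.163).

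On probe A_55_P2081164 the log2 signal of Cd300lf was 9.90, 9.14 and 10.18 in WT, 10.45, 10.28 and 10.08 in Gadd45a-KO, 9.26, 9.57 and 9.37 in Ing1-KO and 8.66, 8.17 and 9.33 in DKO. On probe A_52_P422494 it was 9.06, 8.42 and 9.38, then 9.47, 9.61 and 9.28, then 8.32, 8.81 and 8.71, and 7.84, 7.47 and 8.65 in the same order of groups. On both, the DKO arrays lay below all Gadd45a-KO arrays and reached the lowest values of the 12 arrays. These probes correlated with each other at r = 0.99 over the 12 arrays but with the brightest probe at 0.42 and 0.39. With every probe tested, DKO was below Gadd45a-KO by -1.55 ± 0.29 (SE, n = 3; limma adjusted p 0.0125) and -1.47 ± 0.30 (SE, n = 3; adjusted p 0.0152). On the brightest probe the same difference was -0.67 ± 0.27 (SE, n = 3; adjusted p 0.110), so the call for Cd300lf turns on the probe.

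**Figure D2:**
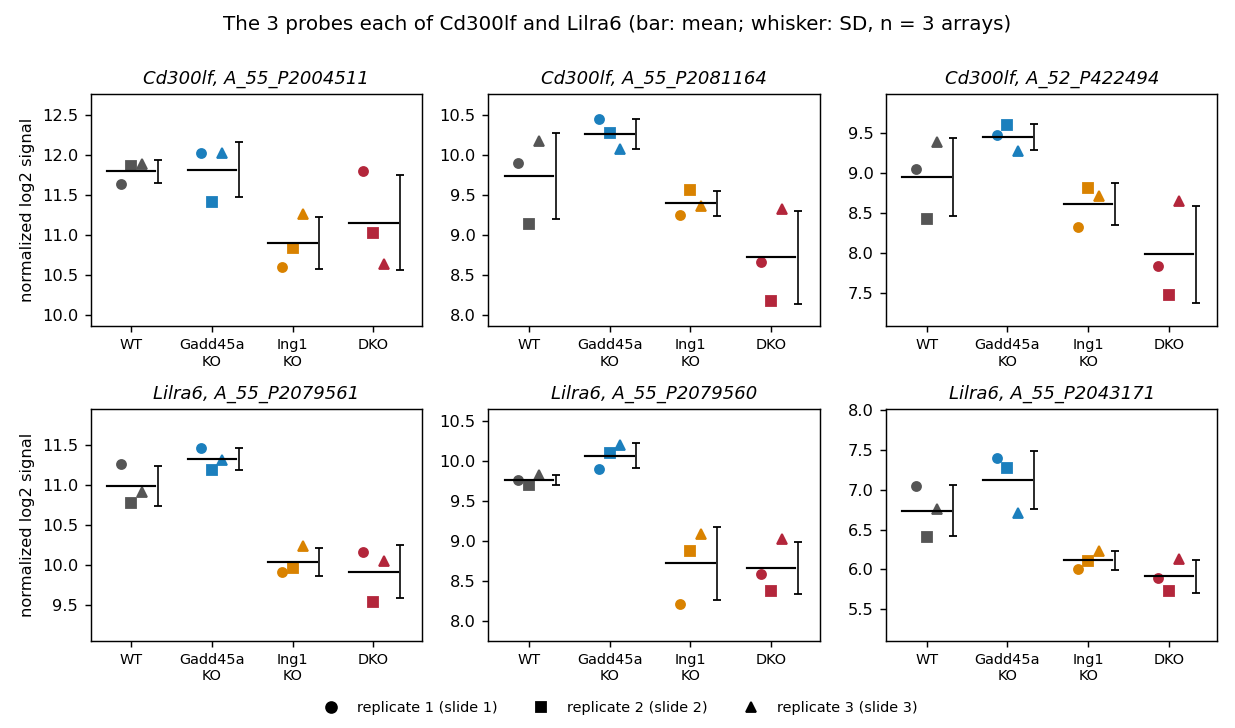
Normalized log2 signal (vertical axis, equal span in each panel) of each of the 3 probes of Cd300lf (top) and of Lilra6 (bottom) on the 12 arrays by genotype, brightest probe on the left. Points are arrays, the line is the mean and the whisker the SD of 3 arrays. The Lilra6 probes give the same order of groups, while the brightest Cd300lf probe has DKO replicate 1 at 11.80, near WT, where both others have it at 8.66 and 7.84, below all WT arrays.

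The other 2 activating receptors among the members, Cd300lb and Cd300e, did not pass the test. Cd300e (A_51_P312035) was 6.59, 5.80 and 5.41 in WT, 6.30, 6.19 and 5.74 in Gadd45a-KO, 5.10, 5.61 and 5.73 in Ing1-KO and 4.85, 5.67 and 5.79 in DKO. Its Ing1-KO arrays lay just below its Gadd45a-KO arrays, and in every other pair the groups overlapped. The difference was -0.60 ± 0.34 (SE, n = 3; 95% interval -1.33 to 0.13; limma adjusted p 0.407), and within slide 3 it was only -0.01.

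Cd300lb (A_65_P13459) was 6.81, 5.05 and 4.86 in WT and 5.96, 5.81 and 5.52 in Gadd45a-KO. It was 6.26, 4.93 and 5.50 in Ing1-KO and 5.17, 5.45 and 5.25 in DKO. WT replicate 1 and Ing1-KO replicate 1 stood above the other arrays of their groups, and DKO lay wholly below Gadd45a-KO. Ing1-KO differed from Gadd45a-KO by -0.20 ± 0.46 (SE, n = 3; 95% interval -1.20 to 0.80; limma adjusted p 0.872), an interval wide enough to hold the size seen for Cd300c2.

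Cd300a codes for an inhibitory receptor of myeloid and mast cells. Its log2 signal (A_55_P2008297) was 7.60, 7.38 and 7.999 in WT, 6.97, 7.72 and 7.45 in Gadd45a-KO, 7.38, 7.66 and 7.96 in Ing1-KO and 7.08, 7.63 and 7.87 in DKO. The groups overlapped in every pair. Ing1-KO less Gadd45a-KO was 0.29 ± 0.26 (SE, n = 3; 95% interval -0.27 to 0.86; limma adjusted p 0.622). The other comparisons gave Cd300a differences from -0.28 to 0.15, none of them called.

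Cd300lg differs from the rest in its known place, since it is an adhesion receptor of endothelial cells. It was 8.54, 9.04 and 8.56 in WT and 8.42, 8.70 and 8.32 in Gadd45a-KO (A_55_P2009953). It was 8.68, 8.86 and 9.05 in Ing1-KO and 8.63, 8.98 and 8.82 in DKO. Its groups overlapped in every pair, with Gadd45a-KO having the lowest mean. Ing1-KO less Gadd45a-KO was 0.38 ± 0.17 (SE, n = 3; 95% interval 0.01 to 0.76; limma adjusted p 0.303). Of 14 endothelial markers none was called in that comparison in either direction, and their median log2 fold change was 0.26. At an unadjusted p under 0.05, 1 was lower, beside 9.39% of all genes, and 2 were higher. The share of all genes higher at that level is not given here, so the count of higher markers is not judged.

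**Figure D3:**
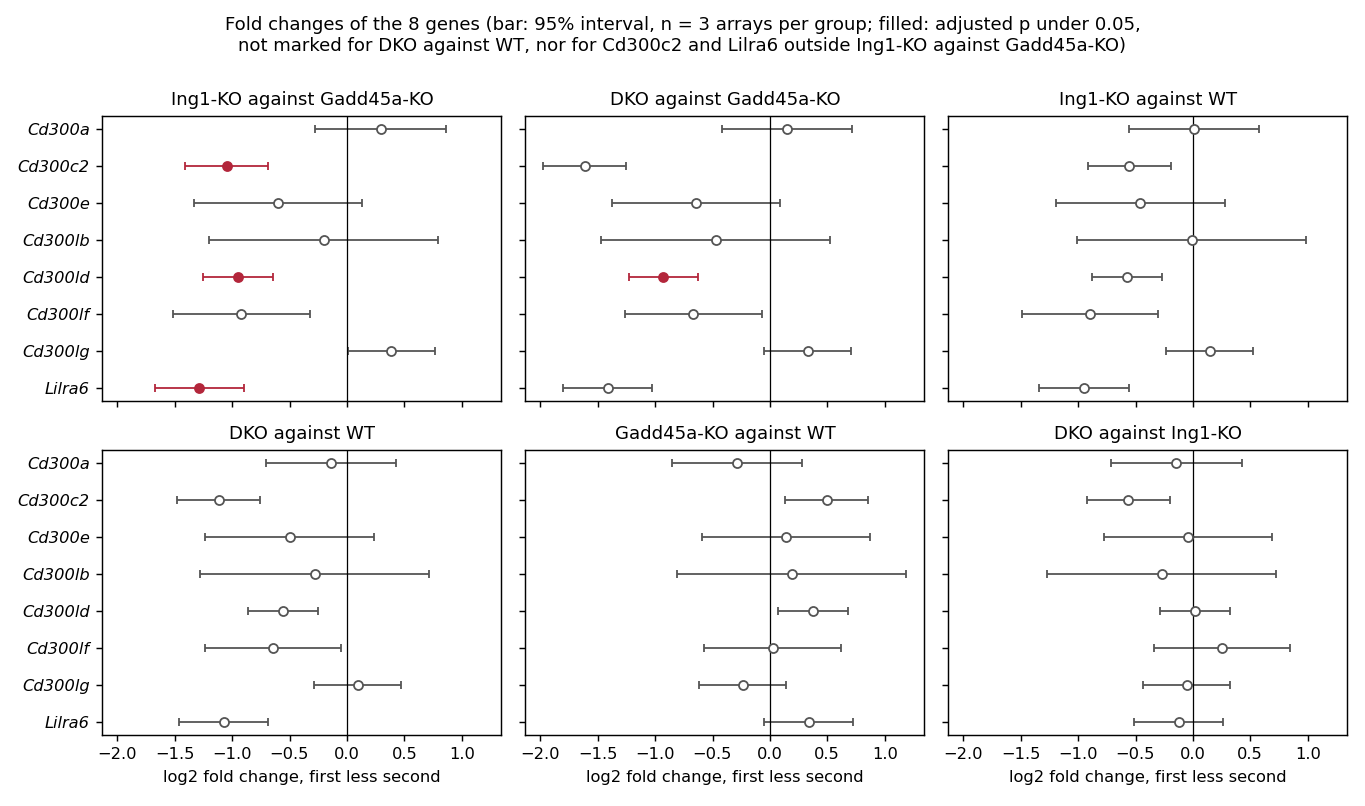
Log2 fold changes (horizontal axis, first group less second) of the 8 genes in 6 comparisons, with 95% intervals from limma over 3 arrays per group. Filled points have an adjusted p under 0.05, which is not marked for DKO against WT or, outside Ing1-KO against Gadd45a-KO, for Cd300c2 and Lilra6, whose arrays served to choose them. Cd300c2, Cd300ld and Lilra6 are filled in Ing1-KO against Gadd45a-KO, and Cd300a lies on both sides of 0.

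Single loss of Ing1 was also compared with WT, which shares the WT arrays with the choice of Cd300c2 and Lilra6. No member was called by limma. Of all genes 0.00318% were called lower, and 8.6% had an unadjusted p under 0.05 in either direction. Of the 8 members 4 had an unadjusted p under 0.05, all with lower signal, and the same number had groups that did not overlap. Over all genes 10.2% had Ing1-KO wholly below WT. The log2 fold changes were -0.95 ± 0.18 for Lilra6, -0.90 ± 0.27 for Cd300lf, -0.58 ± 0.14 for Cd300ld and -0.55 ± 0.17 for Cd300c2 (SE, n = 3), with adjusted p of 0.413 for Cd300ld and 0.496 for Cd300lf. The median over the members was -0.51, and over all genes it was -0.04.

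Loss of Gadd45a alone went with higher signal of Cd300c2 and Cd300ld, without passing the test. The log2 fold changes were 0.49 ± 0.17 and 0.37 ± 0.14 (SE, n = 3), with every Gadd45a-KO array above every WT array, and a limma adjusted p of 1.00 for Cd300ld. No gene was called in this comparison (0% of those tested), although 2.35% had an unadjusted p under 0.05 and 5.53% had Gadd45a-KO wholly above WT. WT replicate 1 was close to the Gadd45a-KO arrays, so within slide 1 the difference was only 0.07 for Cd300c2 and 0.09 for Cd300ld. The 3 Gadd45a-KO arrays of these genes lay close together, with an SD of 0.047 for Cd300c2 and 0.035 for Cd300ld, against 0.36 and 0.26 in WT.

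For Cd300c2 the 3 DKO arrays lay below the 3 of Ing1-KO, by -0.56 ± 0.17 (SE, n = 3). Cd300c2 was chosen for low signal on these DKO arrays, so the value is a description. For the other members the groups overlapped on the brightest probe. No member was called by limma (of all genes 0% were called lower and 0.00318% in either direction, 3.51% had an unadjusted p under 0.05, and 3.75% had DKO wholly below Ing1-KO). In DKO against Gadd45a-KO, which asks what loss of Ing1 did where Gadd45a was lacking, 3 of 8 members were called lower, as were 8.47% of all genes (15% in either direction). DKO lay wholly below Gadd45a-KO in 4 of 8 members and in 20.8% of all genes, so lower signal was common in this comparison. Cd300c2 had -1.61 ± 0.17 and Lilra6 had -1.41 ± 0.18 (SE, n = 3), both measured on the DKO arrays that served to choose them.

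The difference made by Ing1 loss on a Gadd45a-null background, less that on a wild-type background, was -1.06 ± 0.23 for Cd300c2, -0.46 ± 0.25 for Lilra6 and -0.35 ± 0.20 for Cd300ld (SE, n = 3). The term holds the WT and DKO arrays by which Cd300c2 and Lilra6 were chosen, so their values are a description. None of the 31453 genes was called by limma in this term (0%), where 5.93% had an unadjusted p under 0.05. So a joint effect beyond the sum of both losses was not shown for any member. The calls of Cd300c2 and Lilra6 in DKO against WT were fixed by the choice of members, so nothing is read from their number. Called were 2 of 8 members lower, beside 0.0795% of all genes (0.162% in either direction), and 3 of 8 had groups that did not overlap, beside 12.6% of all genes. By size on the brightest probes, the values nearest the limit of the choice were -1.07 for Lilra6 inside it and, outside it, -0.64 for Cd300lf and -0.56 for Cd300ld. Over all probes no such gap was seen. The other Cd300lf probes had -1.02 and -0.97, and the other Lilra6 probes had -1.11 and -0.82.

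The calls in Ing1-KO against Gadd45a-KO depended on the full set of arrays. With any 1 array of these groups left out no member was called, while the log2 fold changes stayed between -1.09 and -1.01 for Cd300c2, -1.02 and -0.86 for Cd300ld, and -1.38 and -1.22 for Lilra6, with adjusted p from 0.0608 to 0.162, and without DKO replicate 1 Cd300c2 missed the threshold at 0.0549. Without the 3 arrays high in skeletal muscle transcripts they were -1.03, -1.03 and -1.15 with adjusted p from 0.359 to 0.392. With the column of the array on its slide as a block the adjusted p lay between 0.244 and 0.283. Of all 31453 genes, 1 was called without those 3 arrays and 2 with the column block, against 78 in the main fit. With 1 of the 12 arrays left out, 1 to 238 genes were called.

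The relatives of these genes also had lower signal in Ing1-KO than in Gadd45a-KO. Of 18 further Cd300, Pir and Lilr genes looked for, 7 were measured, and all 7 had lower signal in Ing1-KO than in Gadd45a-KO. Limma called 2 of them, beside 0.191% of all genes called lower. These were the inhibitory receptor Pirb with -0.87 ± 0.15 and the Pir-like gene Gm14548 with -1.32 ± 0.22 (SE, n = 3; adjusted p 0.0402 for both). Pira2, an activating partner of Pirb, had -1.28 ± 0.25 (adjusted p 0.0655), and Lair1, an inhibitory collagen receptor, had -0.69 ± 0.14 (adjusted p 0.0740). The neighbour Cd300ld4 had -0.89 ± 0.26 (adjusted p 0.159). The median of the 7 was -0.87, against -0.76 for the 8 members and -0.04 for all genes. Against WT the median of the 7 was -0.57 in Ing1-KO, where all 7 were lower and none called, and 0.31 in Gadd45a-KO. Pira2, Pirb and Gm14548 share sequence with Lilra6, so these values may not be separate measurements.

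In DKO against WT, Gm14548 was the only one of the 7 past the limma threshold, with -1.55 ± 0.22 (SE, n = 3), beside 0.0795% of all genes called lower. Pirb had -0.83 ± 0.15 and Pira2 had -1.03 ± 0.25. Lilra6 was chosen on this comparison and shares sequence with Gm14548, Pirb and Pira2, so their values in comparisons with DKO are a description. Cd300ld4 had -1.23 ± 0.26 (limma adjusted p 0.0648). In DKO against Gadd45a-KO 5 of the 7 were called lower, beside 8.47% of all genes, from Lair1 with -0.95 ± 0.14 (adjusted p 0.00834) to Gm14548 with -1.93 ± 0.22 (adjusted p 0.00377). Without DKO replicate 2, which stood apart in other lists, 4 of the 7 were called lower there, beside 1.34% of all genes. In DKO against WT none of the 7 was called without that array, beside 0.00318% of all genes called lower.

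Downstream, the adaptors and enzymes that carry the signal of activating and inhibitory members were all measured, 23 of 23. In Ing1-KO against Gadd45a-KO none was called by limma, while 16 of 23 had an unadjusted p under 0.05 and lower signal, beside 9.39% of all genes, and none had higher signal at that level. Their median was -0.52. Against WT it was -0.28 in Ing1-KO, with none called, and 0.24 in Gadd45a-KO. In Ing1-KO against Gadd45a-KO the values were as follows. The smallest adjusted p was 0.0691 for the Src-family kinase Fgr, with -1.12 ± 0.23 (SE, n = 3). Of the adaptors of activating members, Fcer1g had -0.67 ± 0.15 (adjusted p 0.0853), and Tyrobp had -0.65 ± 0.22 (adjusted p 0.201). Ptpn6, the phosphatase of the inhibitory members, had -0.46 ± 0.25.

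In DKO against WT, 1 of the 23 was called, beside 0.0795% of all genes called lower. It was the docking protein gene Dok1, an inhibitor of tyrosine kinase signals, with -0.78 ± 0.13 (SE, n = 3; limma adjusted p 0.0436). Fcer1g had -0.64 ± 0.15 (adjusted p 0.0719) and Fgr had -0.95 ± 0.23 (adjusted p 0.0749). In DKO against Gadd45a-KO 18 of the 23 were called lower, beside 8.47% of all genes, among them Syk with -0.94 ± 0.18 (adjusted p 0.0141), Fcer1g with -0.88 ± 0.15 (adjusted p 0.00990) and Tyrobp with -0.82 ± 0.22 (adjusted p 0.0328). DKO replicate 2 stood apart in this list, with a mean deviation of -0.88 from each gene's average over the arrays, against -0.37 and -0.10 in replicates 1 and 3. Without that array 5 of the 23 were called lower, beside 1.34% of all genes. In DKO against WT none of the 23 was called without it, beside 0.00318% of all genes called lower. The same array was lowest in T cell markers, at -1.31, and in B cell markers, at -1.12. In DKO against Gadd45a-KO 10 of 12 T cell and 3 of 8 B cell markers were called lower, beside 8.47% of all genes. Without DKO replicate 2, 0 of either were called lower, beside 1.34% of all genes. The part of these cells in the adaptors' differences was not tested.

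Of 23 other paired receptors of myeloid cells 19 were measured. Against WT their median was -0.31 in Ing1-KO, with none called, and 0.29 in Gadd45a-KO. Of the 19, 18 had lower signal in Ing1-KO than in Gadd45a-KO, with a median of -0.57. Limma called 2, the lectin receptor Clec4n with -1.61 ± 0.25 (adjusted p 0.0296) and the sialic acid receptor Cd33 with -1.04 ± 0.17 (SE, n = 3; adjusted p 0.0312), beside 0.191% of all genes called lower. None was called in DKO against WT, where their median was -0.46, against -0.04 for all genes. The smallest adjusted p there was 0.0723, for Sirpa, an inhibitory receptor that binds Cd47, with -0.56 ± 0.13 (SE, n = 3). In DKO against Gadd45a-KO 8 of the 19 were called lower and 1 higher, the Tyrobp-coupled receptor gene Trem1 with 0.58 ± 0.14 (limma adjusted p 0.0239). Of all genes 8.47% were called lower there and 15% in either direction. Without DKO replicate 2, 6 of the 19 were called lower and 0 higher, beside 1.34% of all genes called lower. A further list held 8 genes for the chains of MHC class I molecules, the ligands of Pir receptors, and for loading them with peptide. In Ing1-KO against Gadd45a-KO none of the 8 was called by limma, none had an unadjusted p under 0.05, and their median was -0.01. None was called in DKO against WT or DKO against Gadd45a-KO either. In each, 7 of 8 were negative and 3 of 8 were lower at an unadjusted p under 0.05. The share of all genes at that level is not given here, so these counts are not judged. The medians of the list were -0.12 and -0.22, against -0.04 and -0.03 for all genes.

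**Figure D4:**
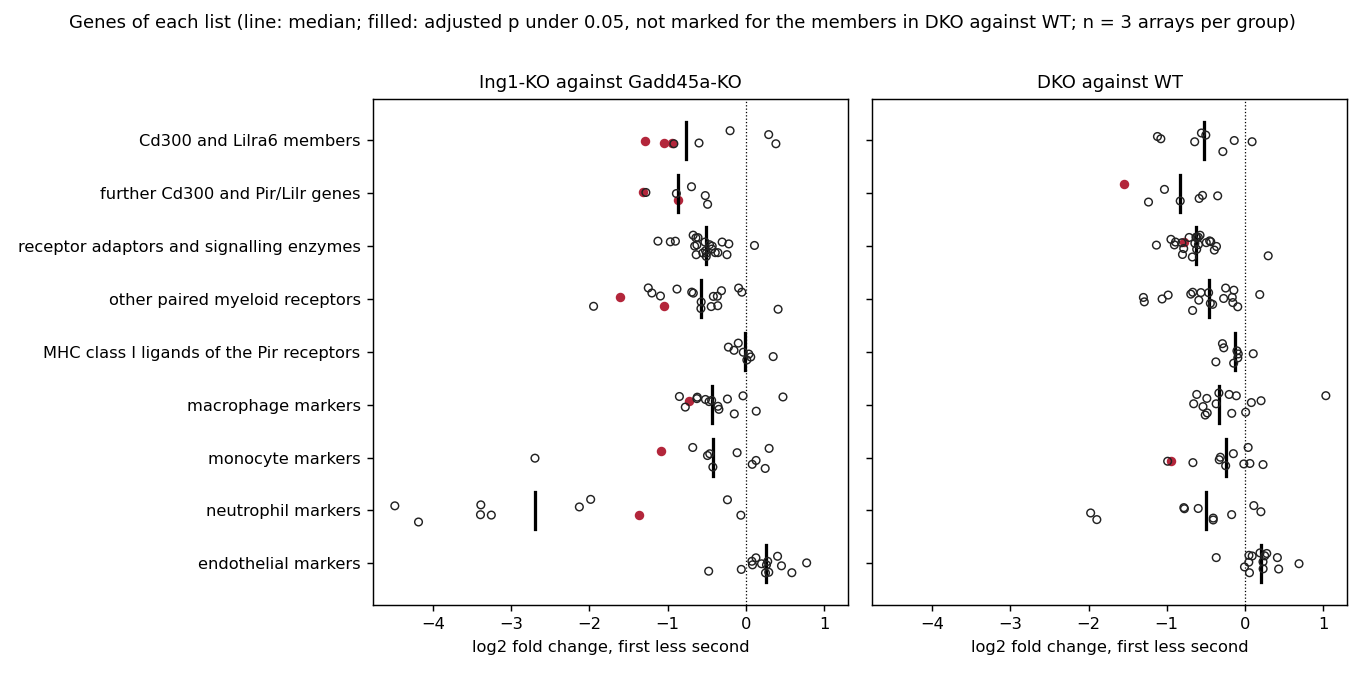
Log2 fold change (horizontal axis, first group less second) of each measured gene of 9 lists, in Ing1-KO against Gadd45a-KO (left) and DKO against WT (right). Each point is a gene over 3 arrays per group, filled points have a limma adjusted p under 0.05 (not marked for the members on the right), and the vertical line is the list's median. On the right, the filled point of Gm14548, which shares sequence with Lilra6, is a description. On the left the medians of the receptor lists lie between -0.87 and -0.57, and those of macrophage and monocyte markers at -0.44 and -0.42. That of neutrophil markers lies at -2.69 and that of MHC class I and peptide-loading genes at -0.01.

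Markers of the cells that carry these receptors were examined in the same comparison. In Ing1-KO against Gadd45a-KO, 13 of 15 measured macrophage markers had lower signal, with a median of -0.44. Of them 1 was called, the growth factor receptor gene Csf1r with -0.72 ± 0.12 (SE, n = 3; limma adjusted p 0.0422), beside 0.191% of all genes called lower. Of 11 monocyte markers 7 were lower, a share near the 55.2% of all genes below 0, and 1 was called, Cx3cr1 with -1.09 ± 0.15 (adjusted p 0.0232). Against WT, the medians of macrophage and monocyte markers were -0.10 and -0.01 in Ing1-KO, with none called, and 0.34 and 0.23 in Gadd45a-KO. The summed macrophage marker signal ranged from 59969 to 63200 intensity units in Ing1-KO, from 51456 to 61233 in DKO, from 64412 to 85245 in WT and from 81859 to 92394 in Gadd45a-KO, so the sums with and without Ing1 did not overlap. As a mean deviation on the log2 scale, in which each marker counts alike, WT (-0.14 to 0.23) and Ing1-KO (-0.19 to 0.02) did overlap. The part of cell numbers in the members' differences was not tested.

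Neutrophil markers had a median of 2.24 in Gadd45a-KO against WT and of -0.23 in Ing1-KO against WT, with none called in either. All 10 measured had lower signal in Ing1-KO than in Gadd45a-KO, with a median of -2.69, and 1 was called, Cxcr2 with -1.37 ± 0.20 (SE, n = 3; limma adjusted p 0.0244). Among them, Ngp, Ltf and Retnlg were well above background on only 7, 9 and 9 of the 12 arrays. As a mean deviation from each gene's average over the arrays, the list lay between 0.64 and 2.78 in Gadd45a-KO, -0.99 and 0.42 in WT, -1.20 and 0.07 in Ing1-KO and -1.19 and -0.60 in DKO. Dendritic cell, mast cell, T cell, B cell and NK cell lists also had negative medians, from -0.80 to -0.33, with 1 dendritic cell marker called, Cd207. Of the others none was called by limma. At an unadjusted p under 0.05, 4 of 7 mast cell, 3 of 12 T cell, 5 of 8 NK cell and 0 of 8 B cell markers were lower, beside 9.39% of all genes. Of 10 adipocyte markers none was called and 5 were higher at that level, with a median of 0.47. The share of all genes higher at that level is not given here, so this count is not judged. The part of each of these cell types in the members' differences was not tested.

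Across the 12 arrays, log2 signal of Cd300ld, Cd300c2 and Lilra6 correlated with the mean of the macrophage markers at r = 0.89, 0.87 and 0.77. As deviations from the group means the values were 0.89, 0.56 and 0.27, so for Cd300ld arrays high within their group were high in the macrophage markers too. The groups themselves make up much of the first set of values. Cd300lb had 0.67 and, within groups, 0.92, and Cd300a had -0.18 and 0.07. The likeness was not particular to macrophage markers. Monocyte markers gave 0.89 for Cd300ld, 0.90 for Cd300c2 and 0.82 for Lilra6. For Lilra6, dendritic cell markers gave 0.82 and T cell markers 0.79, and within groups 0.65 and 0.53, above its value for macrophage markers. Adipocyte markers gave -0.90 for Cd300c2.

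Among themselves, 3 of the 8 members had the most alike profiles. Cd300c2 and Lilra6 correlated at r = 0.93 over the 12 arrays, Lilra6 and Cd300ld at 0.89, and Cd300c2 and Cd300ld at 0.88. Within groups these values were 0.59, 0.03 and 0.27, so most of the likeness lay between genotypes. The 12 arrays include those by which Cd300c2 and Lilra6 were chosen, so their likeness is a description. Next came Cd300lf with Lilra6 at 0.77, Cd300e with Cd300ld at 0.70 and Cd300e with Cd300c2 at 0.68. Cd300lg ran the other way, with -0.61 against Cd300c2 and -0.66 against Lilra6. Cd300a had -0.06 and -0.21.

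The named genes most like Cd300c2 over the 12 arrays by Pearson's r were the lysosomal peptidase Prcp (0.99), the TNF-family ligand Tnfsf15 (0.98), Pirb (0.98), the cholesteryl ester hydrolase Nceh1 (0.97) and the transglutaminase Tgm1 (0.97). The log2 signal of Prcp (mean ± SD, n = 3) was highest in Gadd45a-KO at 12.92 ± 0.05, then 12.64 ± 0.18 in WT and 12.42 ± 0.03 in Ing1-KO, and lowest in DKO at 12.21 ± 0.07, the same order of groups as Cd300c2. In Ing1-KO against Gadd45a-KO, Nceh1 had -0.96 ± 0.15 (SE, n = 3). These genes were picked by likeness to Cd300c2 over the same arrays, so their order of groups and differences are a description.

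Passing over predicted and clone names, those most like Lilra6 were the serine protease inhibitor genes Serpina1a (0.98), Serpina1e (0.97) and Serpina1c (0.97), the guanine exchange factor gene Arhgef2 (0.98) and Pirb (0.97). In Ing1-KO against Gadd45a-KO, Serpina1a had -0.94 ± 0.16 (SE, n = 3), a description too, since it was picked by likeness to Lilra6 over the same arrays. The 3 Serpina1 genes are near-identical copies, so their probes may read the same transcripts. Gm14548, a predicted name passed over by the rule, came just before Pirb, which stood in both sets of 5.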

How the data were processed

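Total RNA of gonadal fat was hybridised to 12 one-colour (Cy3) Agilent arrays, 3 per genotype. The authors deposited scanner files of spot intensity, made with Feature Extraction 10.7.3.1 per the file headers, and a table of log2 values for which the submitters' processing notes name limma 3.26.9. How those log2 values were scaled is not given in the sources used here. The deposited log2 table served only as an alternative. Genome build of the probe design was mm9 per the file headers, and no array coordinates are printed.

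Spots marked as feature outliers were dropped (94 of 55681 probes lost), spots of a probe averaged, and log2 processed signal aligned on each array's 75th percentile. Genes were named through RefSeq accessions, 27509 of 29150 probes with one. A probe entered the fit if 3 or more of the 12 arrays gave it a signal well above background, and the brightest probe stood for a gene. limma 3.58.1 (R 4.3.3, trend and robust empirical Bayes) fitted 4 group means with 8 residual degrees of freedom, with Benjamini-Hochberg adjustment over 31453 genes or unnamed probes and a threshold of 0.05. The number of arrays limits the precision, and p-values rest on the spread between pools of mice, which also lay on different slides. The fit was tested on simulated data.

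Members and gene lists were chosen with earlier results of these data known. Named were the 8 members, the genes of the receptor and signalling lists past the threshold in a comparison or otherwise those with the smallest p in DKO against WT, and the 5 named genes most correlated with Cd300c2 and with Lilra6, members and predicted or clone names passed over. The alternatives changed the scaling, background correction, filter, probe choice, variance model, arrays fitted and blocks for replicate number and array position. Same-numbered arrays of different groups had correlated deviations in 9 of 18 pairs above 0.1 (median r = 0.12), against 8 of 36 pairs with different numbers (median r = -0.099). Not every same-numbered pair exceeded 0.1, so the rule used here did not take the numbers as pairing, although the arrays of a number share a slide and a slide effect may be present.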

Additional observations from a re-analysis of the deposited data

How the results depend on the processing

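No alternative gave a called member the opposite sign. Member differences numbered 720 under the alternatives that kept all arrays, fitted only the arrays compared or dropped the 3 high in muscle transcripts. Of these, 670 kept their direction and their side of the threshold, as did 598 of 672 with 1 array left out. The fits without the muscle-rich arrays and the list counts without DKO replicate 2 were chosen after seeing the data. Leaving out an array leaves 2 in its group, and the cause of a changed call was not tested unless fewer arrays were fitted. With the replicate block all 3 member calls in Ing1-KO against Gadd45a-KO were kept, at -1.05, -0.95 and -1.29 for Cd300c2, Cd300ld and Lilra6 (limma adjusted p 0.0477, 0.0436 and 0.0253).

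Members called by limma in Ing1-KO against Gadd45a-KO (3) became 1 with median centring and 0 with array column as a block or without the muscle-rich arrays, and 0 to 3 with 1 array left out. Cd300c2 alone missed the threshold with plain empirical Bayes (adjusted p 0.0583) and with array row as a block (0.0655). In DKO against WT (2) they became 1 with median centring or no filter. They became 0 with plain empirical Bayes, only the arrays compared, a block for array row or for array column, or without the muscle-rich arrays, and 0 to 2 with 1 array left out. In DKO against Gadd45a-KO (3) they became 0 with array column as a block and without the muscle-rich arrays, and 3 to 4 with 1 array left out.

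Genes called in Ing1-KO against Gadd45a-KO (78) were 29 with median centring, 166 with normexp, 43 with plain empirical Bayes, 444 with only the arrays compared, 20 with array row and 2 with array column as a block, 1 without the muscle-rich arrays, and 1 to 238 with 1 array left out. In DKO against WT (51) they were 202 with normexp, 25 with no filter, 4 with plain empirical Bayes, 1 with only the arrays compared, 653 with the replicate block, 3 and 1 with array row and column, 1 without the muscle-rich arrays, and 1 to 3307 with 1 array left out. In DKO against Gadd45a-KO (4704) they were 3062 with no filter, 502 with only the arrays compared, 3 with array column, 1 without the muscle-rich arrays, and 539 to 7065 with 1 array left out. In Ing1-KO against WT (1) they were 5 with quantile normalization, 4 with median centring, 2 with normexp, 2 with the authors' values, 11 with every probe, and 1 to 16 with 1 array left out. In DKO against Ing1-KO (1) they were 0 with only the arrays compared, array column or without the muscle-rich arrays, and 0 to 3 with 1 array left out. In Gadd45a-KO against WT (0) they were 0 to 1 with 1 array left out.

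Signs turned only for differences that were not called. In Gadd45a-KO against WT, Cd300e was -0.058 with normexp and -0.094 with array column, Cd300lb -0.071 with normexp, and Cd300lf -0.088 with array row and -0.077 without the muscle-rich arrays. In Ing1-KO against WT, Cd300lb was 0.046 with quantile normalization, 0.065 with median centring and 0.045 with the authors' values, and Cd300a -0.091 with normexp, -0.0085 with the authors' values and -0.0094 with array column. In DKO against WT, Cd300a was 0.088 without the muscle-rich arrays. In DKO against Ing1-KO, Cd300e was 0.046 with normexp, 0.14 with array column and 0.060 without the muscle-rich arrays, where Cd300lb was 0.14 and Cd300lf -0.22. For the interaction, Cd300e was 0.10 with normexp, 0.23 with array column and 0.030 without the muscle-rich arrays, where Cd300lb was 0.043 and Cd300lf -0.14.

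With 1 array left out, the ranges that crossed 0 were as follows. In Gadd45a-KO against WT they were -0.12 to 0.47 for Cd300e, -0.17 to 0.81 for Cd300lb and -0.077 to 0.23 for Cd300lf. In Ing1-KO against WT they were -0.14 to 0.18 for Cd300a and -0.37 to 0.61 for Cd300lb. In DKO against WT they were -0.31 to 0.088 for Cd300a and -0.64 to 0.33 for Cd300lb, in DKO against Gadd45a-KO -0.056 to 0.37 for Cd300a, and in Ing1-KO against Gadd45a-KO -0.55 to 0.12 for Cd300lb. In DKO against Ing1-KO they were -0.31 to 0.080 for Cd300a, -0.23 to 0.25 for Cd300e, -0.59 to 0.075 for Cd300lb, -0.072 to 0.10 for Cd300ld, -0.071 to 0.51 for Cd300lf, -0.15 to 0.038 for Cd300lg and -0.25 to 0.063 for Lilra6. For the interaction they were -0.064 to 0.37 for Cd300a, -0.51 to 0.11 for Cd300e and -0.10 to 0.49 for Cd300lf.

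As a hint of a slide effect, 9 of 12 arrays correlated best with an array of their own number, which is also their slide. Not every same-numbered pair exceeded the limit set for pairing, so the replicate block stayed an alternative.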
